A study of Fukomys damarensis with 16 samples.

Results

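The testis of a breeding male Damaraland mole-rat was compared with the testis of a non-breeding male of the same species, gene by gene, with 1 library on each side. Of the 21082 genes in the table, the 15452 that reached 1 RPKM (reads per kilobase of gene model, divided by a number of reads set for each library) in at least 1 of the 2 libraries were used. The difference of a gene is given as the log2 of the ratio of (RPKM + 1), breeding over non-breeding, so a negative value means a lower level in the breeding testis. The genes were divided by where else in the body they were read. Testis-restricted genes lay under 0.1 RPKM in all 14 libraries of other tissues, and 254 of them were measured. Testis-enriched genes had a testis mean at least 8 times the mean of each other tissue and were not restricted, which gave 984. Widely expressed genes lay at 1 RPKM or more in all 16 libraries and were not enriched, which gave 10090. The remaining 4124 genes formed a mixed class.

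The testis produces sperm and androgens. Within its seminiferous tubules, germ cells divide by mitosis, pass through meiosis and are remodelled into spermatozoa while Sertoli cells support them, and Leydig cells between the tubules secrete testosterone. Meiotic and later germ cells transcribe many genes that are silent elsewhere in the body, which is why the mammalian testis holds an unusually large set of tissue-restricted transcripts. In mole-rats that live in colonies, breeding is held by few animals, and the other adults of a colony act as helpers, so a comparison of breeding with non-breeding males addresses how the gonad differs between these roles.

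The series holds poly(A)-selected RNA of kidney, liver and brain from breeding and non-breeding males and females, of ovary from females of each status and of testis from males of each status. The non-breeding male libraries are labelled 5 years old and the non-breeding female ones 3 years old. No age is given for breeders, and age therefore cannot be told apart from status. No label says how many animals a library pools or which tissues share an animal. The male brain pair sets a library labelled frontal brain against one labelled brain. No second library exists for any group, so no difference below has a replicate check, none was tested, and every statement compares 2 libraries and not 2 conditions. Reads behind the values were recovered from the RPKM steps: the breeding testis had 18555319 reads on genes and the non-breeding testis 26730187, against 15393003 to 27593857 in the other libraries. What the per-library divisor of the RPKM counts is not stated. Reads on genes came to 1.55 to 1.97 times the divisor in the 4 liver libraries and to 0.665 to 0.945 times elsewhere, with 0.665 and 0.686 in the breeding and non-breeding testis, so RPKM levels in liver sit on a higher scale and the class bounds, which compare RPKM across tissues, carry that difference. Identifiers could not be paired with gene names (0 of 21082 were found in the RefSeq gene table), so markers of germ cells, Sertoli cells or Leydig cells could not be looked up, the tissue labels could not be checked against them, and genes are described by class, level and length. At most 2 identifiers are printed per direction and class. In bulk tissue, fewer cells of a type and less RNA per cell cannot be told apart.

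The 2 testis libraries were close for most genes, and the genes that stood apart were mostly lower in the breeding testis. Over all 15452 genes the median log2 ratio was -0.06, 56.6% were lower in the breeder, and the quartiles were -0.33 and 0.18. A ratio of 2-fold or more toward the breeding testis was found for 98 genes (0.634%) and toward the non-breeding testis for 408 (2.64%), so 19.4% of the genes past 2-fold were higher in the breeder. This split depends on scaling: quantile normalization gave 137 higher and 306 lower (30.9% higher), and centring on widely expressed genes of like coding length gave 180 and 277 (39.4% higher). Scaling to reads on genes gave 157 higher and 433 lower. The genes past 2-fold had short coding sequences, with a median of 568.5 bases for those higher and 588 for those lower, against 1269 over all measured genes. Low depth was more frequent on the higher side: 21 of the 98 and 30 of the 408 had under 50 reads in the 2 libraries together. The median number of reads in both libraries was 191.5 for the higher and 468.5 for the lower genes. The share under 50 reads among all measured genes was not counted. Among the 408 lower genes, 39 were restricted, 89 enriched, 123 widely expressed and 157 of the mixed class. Among the 98 higher genes the numbers were 3, 6, 33 and 56, and among all 15452 measured genes 254, 984, 10090 and 4124.

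**Figure D1:**
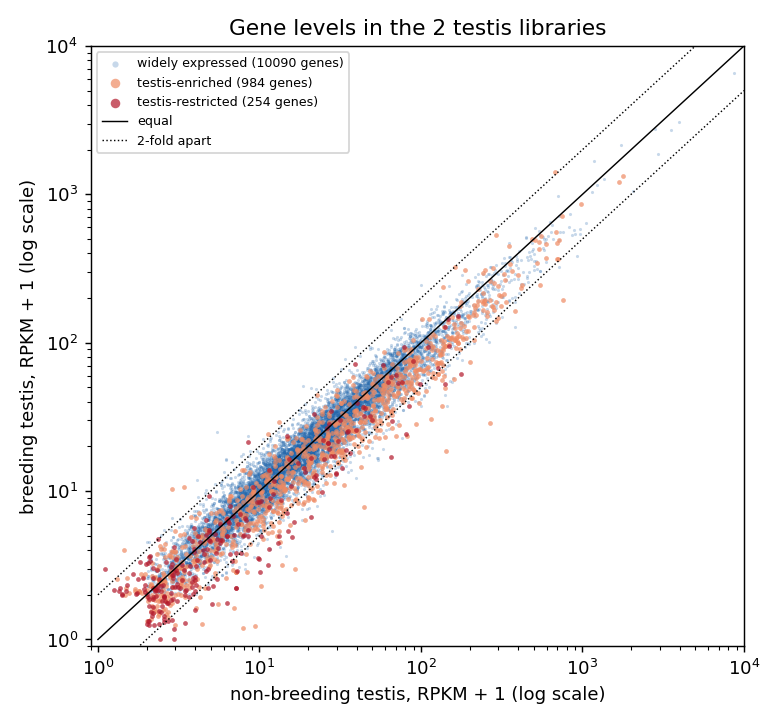
RPKM + 1 of each widely expressed, testis-enriched and testis-restricted gene in the non-breeding (x axis) and breeding (y axis) testis library, both on log scales; the solid line marks equal levels and the dotted lines 2-fold differences. The restricted and enriched genes sit mostly under the line of equal levels, and 128 of them lie 2-fold or more lower in the breeding library.

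The highest ratios of (RPKM + 1), the measure used for ranking, belonged to genes of the mixed class; plain RPKM ratios, given with their intervals, can be larger for genes with few reads. DMR_00791 stood at 14.6 RPKM (272 reads) in the breeding and 1.39 (36 reads) in the non-breeding testis, 10.6 times as high (exact 95% interval 7.44 to 15.4), and lay between 0.339 and 3.39 RPKM in the other 14 libraries. DMR_18067, a gene otherwise read in brain, stood at 19.8 RPKM (124 reads) against 2.85 (25 reads), a ratio of 6.93 (4.48 to 11.1). In brain its level was 8.91 to 38.3 RPKM, in ovary at most 0.44, and no kidney or liver library held a read of it. These intervals and all others here cover counting error only.

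The restricted and enriched classes lay lower in the breeding library than widely expressed genes did. The 254 restricted genes had a median log2 ratio of -0.36 (quartiles -0.73 and -0.02), and 194 of them (76.4%) were lower in the breeder. The 984 enriched genes had a median of -0.35 (quartiles -0.67 and -0.04), and 753 (76.5%) were lower. The 10090 widely expressed genes centred near equality, with a median of -0.03 (quartiles -0.26 and 0.19) and 53.2% lower. The mixed class lay between, at -0.09 with 58.8% lower. The median of the restricted class was thus 0.33 below that of the widely expressed genes on the log2 scale, and so was that of the enriched class, or about 0.80 times. Past 2-fold, 15.4% of the restricted and 9.04% of the enriched genes were lower in the breeding testis, against 1.22% of the widely expressed genes and 2.64% of all. In the other direction the shares were 1.18%, 0.61% and 0.327%, against 0.634% of all.

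**Figure D2:**
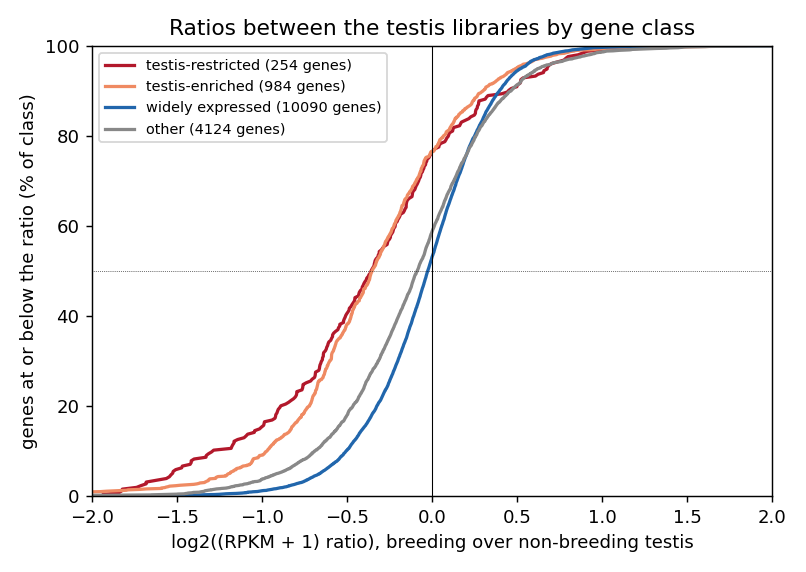
Cumulative share of genes (y axis, percent of the class) at or below each log2((RPKM + 1) ratio, breeding over non-breeding testis; x axis) for the 4 classes. The curves of the restricted and enriched classes run to the left of the other 2 and cross 50% at -0.36 and -0.35, while the widely expressed genes cross it at -0.03.

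All 254 measured restricted genes also met the bound for enrichment, and 49 genes met both that for enrichment and that for wide expression and were counted as enriched. By its bound alone the restricted class held 1347 genes, of which 1093 stayed below 1 RPKM in both testis libraries. Of the 254 that passed, 193 reached 1 RPKM in both, 18 in the breeding testis alone and 43 in the non-breeding testis alone. Genes that passed through 1 library alone had to differ to some degree. With 1 RPKM required in both libraries, the median was -0.33 for the restricted and -0.34 for the enriched class. Over the 1276 restricted genes with any read in the testes, most of them below 1 RPKM in both, the median was -0.05, and 61.4% were lower in the breeder. The added 1 RPKM holds the ratios of such low genes near 0, so this median cannot be set beside the others. Genes just inside the restricted bound, with a highest level elsewhere of 0.05 to 0.1 RPKM, had a median of -0.27 (68 genes), and those just outside, at 0.1 to 0.2 RPKM, one of -0.37 (147 genes). Genes with a testis mean 8 to 10 times that of the next tissue had -0.32 (120 genes), and those at 6 to 8 times -0.21 (192 genes).

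Restricted genes were mostly low and short, with a median testis level of 3.24 RPKM and a median coding length of 697.5 bases, and 167 of the 254 had no read in any of the 14 other libraries. The lengths and reads of those 167 were recovered from the testis libraries alone and may be too small by a common factor. The lowest log2 ratio among them belonged to DMR_14671, read in testis only, which stood at 16.04 RPKM (318 reads) in the breeding and 64.1 (1775 reads) in the non-breeding testis, a level 3.996 times as high in the non-breeder (exact 95% interval 3.54 to 4.52). DMR_15641, at 0.768 against 5.34 RPKM, rested on 7 and 68 reads, and its interval ran from 3.20 to 18.0 times higher in the non-breeder. Only 3 restricted genes were 2-fold or more higher in the breeder, all of short coding length. DMR_22229 stood at 1.97 RPKM (25 reads) against 0.113 (2 reads), with a ratio of 17.5 that the reads place only between 4.35 and 152. DMR_19407, with a coding length of 147 bases, stood at 20.5 RPKM (84 reads) against 7.51 (43 reads), 2.73 times as high (1.87 to 4.04). The 10 most abundant restricted genes included 9 that were lower in the breeding testis, with log2 ratios from -1.52 to 0.26 and a median of -0.24. The first of them stood at 150.7 and 167.6 RPKM, and the pair furthest from equality at 60.6 against 176.1 and 52.1 against 139.1. The 10 most abundant widely expressed genes were close to this, with 8 lower and a median of -0.22.

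The enriched class was more abundant, with a median testis level of 20.0 RPKM. DMR_11289 had the lowest ratio of (RPKM + 1) of any measured gene, though not of plain RPKM: 28.0 RPKM (587 reads) in the breeding testis and 265.1 (7777 reads) in the non-breeding one, 9.49 times as high in the non-breeder (exact 95% interval 8.72 to 10.3). Its level in brain was 1.06 to 4.88 RPKM and at most 0.921 in any ovary, kidney or liver library. DMR_17526 followed with 17.5 RPKM (158 reads) against 142.1 (1793 reads), 8.12 times as high in the non-breeder (6.90 to 9.62), and had at most 0.87 RPKM elsewhere. At the other end, DMR_13727 stood at 9.39 RPKM (128 reads) in the breeder and 1.89 (36 reads) in the non-breeder, a ratio of 4.97 (3.408 to 7.403). DMR_04683 stood at 9.64 (154 reads) against 2.42 (54 reads), a ratio of 3.98 (2.90 to 5.54). Of the 10 most abundant enriched genes 9 were lower in the breeding testis. The exception, chosen for mention after its values were seen, stood at 1402 RPKM against 672.5, a log2 ratio of 1.06, and at no more than 7.57 RPKM in any other tissue. The most abundant stood at 1330 against 1791 RPKM and the next at 1217 against 1689. Among the 10 most abundant widely expressed genes 8 were lower.

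Widely expressed genes past 2-fold were rare in either direction, 33 higher and 123 lower in the breeding testis. DMR_21816 had the highest ratio, at 24.1 RPKM (248 reads) against 4.45 (64 reads), 5.41 times as high in the breeder (exact 95% interval 4.10 to 7.24). It was higher in the breeding library in all 8 pairs of like tissue and sex, at 11.1 to 27.5 RPKM in the breeding and 1.07 to 5.21 RPKM in the non-breeding libraries. DMR_05616, chiefly a brain transcript at 562.8 to 1137 RPKM there, stood at 10.9 RPKM (288 reads) against 3.10 (114 reads) in testis, a ratio of 3.53 (2.83 to 4.42). DMR_10995 stood at 4.36 RPKM (23 reads) against 27.3 (201 reads), 6.26 times as high in the non-breeder (4.05 to 10.1), and at 13.3 to 79.4 RPKM in the other 14 libraries, so it was the breeding testis that lay outside their range. DMR_17193, with a coding length of 1872 bases, stood at 2.64 RPKM (138 reads) against 13.6 (991 reads), 5.14 times as high in the non-breeder (4.30 to 6.19). Its levels elsewhere were 22.6 to 38.0 RPKM in brain and 1.27 to 4.81 in the remaining tissues.

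The lower level of testis genes in the breeder was seen at every level of expression compared. Enriched genes with a testis mean under 3 RPKM had a median log2 ratio of -0.17, those from 3 to 10 RPKM -0.30, from 10 to 30 RPKM -0.33, from 30 to 100 RPKM -0.43 and at 100 RPKM or more -0.48. The share lower in the breeding testis went from 64.2% of 151 genes in the lowest group to 88.1% of 134 genes in the highest. Between the same groups the share also rose from 48.8% to 70.9% of widely expressed genes. In the mixed class it rose from 55.6% to 83.3%, the latter of 24 genes. The restricted class gave medians of -0.33, -0.34, -0.51, -0.45 and -0.20 in the same order, the last from 6 genes that were all lower. Widely expressed genes gave medians within 0.01 of 0 in the 3 lowest groups, then -0.06 and -0.19, so the most abundant of them also leaned toward the non-breeder, by less than enriched genes of that level. At 100 RPKM or more the restricted median of -0.20 was thus close to that of widely expressed genes.

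Coding length moved with the ratio. Measured genes were divided into 3 length groups of nearly equal size, short up to 909 bases, middle up to 1770 bases and long beyond that. Widely expressed genes had a median log2 ratio of -0.16 in the short, -0.05 in the middle and 0.07 in the long group. Because 64.6% of the restricted and 51.1% of the enriched genes were short, against 28.8% of the widely expressed ones, the classes were compared within each length group. Enriched genes had medians of -0.41, -0.36 and -0.19 in the short, middle and long groups, which is 0.25, 0.31 and 0.27 below widely expressed genes of the same group. Restricted genes had -0.41 (164 genes), -0.24 (60 genes) and -0.26 (30 genes), or 0.25, 0.19 and 0.34 below. Recovered lengths are least certain in the restricted class, so some of its genes may belong in a longer group. After centring on widely expressed genes of like length, the medians were -0.24 for the restricted and -0.28 for the enriched class. The testis classes thus lay below widely expressed genes in all 3 length groups. The part of fragment size or RNA quality in the length trend was not tested.

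**Figure D3:**
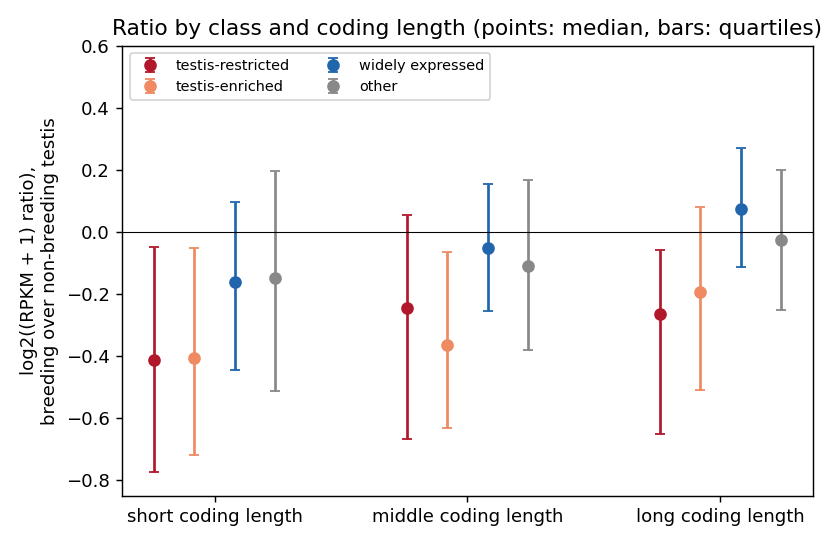
Median (points) and quartiles (bars) of the log2((RPKM + 1) ratio), breeding over non-breeding testis (y axis), for the 4 gene classes in the short, middle and long coding-length groups (x axis). Ratios move upward with length in the widely expressed class, from -0.16 to 0.07, and the restricted and enriched medians lie below it in each group.

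Among genes higher in testis than elsewhere, the ratio was lower the higher a gene scored on a measure of specificity that also rises with its testis level. Specificity was taken as the log2 of the ratio of (RPKM + 1) between the testis mean and the highest mean of the other 4 tissues. Where another tissue exceeded the testis, the median ratio between the testes stayed near 0: it was -0.04 for 1822 genes below -3, -0.02 for 4865 genes from -3 to -1 and -0.01 for 3890 genes from -1 to 0. It was -0.08 for 2576 genes from 0 to 1, -0.18 for 1129 genes from 1 to 2, -0.23 for 531 genes from 2 to 3, -0.38 for 457 genes from 3 to 5 and -0.53 for 182 genes at 5 or more. In that last group 165 of 182 genes (90.7%) were lower in the breeding testis, 24 of them (13.2%) by 2-fold or more, against 56.6% and 2.64% of all measured genes. Within the short, middle and long groups the medians at 5 or more were -0.57, -0.50 and -0.35, against -0.15, -0.04 and 0.09 for genes from -1 to 0. The classes overlap with this measure, which reads the same libraries. Because 1 RPKM is added, a gene unread elsewhere scores high only if its testis level is high. Among enriched genes the ratio also fell with level. The part of level in the trend was not tested, and the restricted and enriched classes had medians of -0.36 and -0.35.

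**Figure D4:**
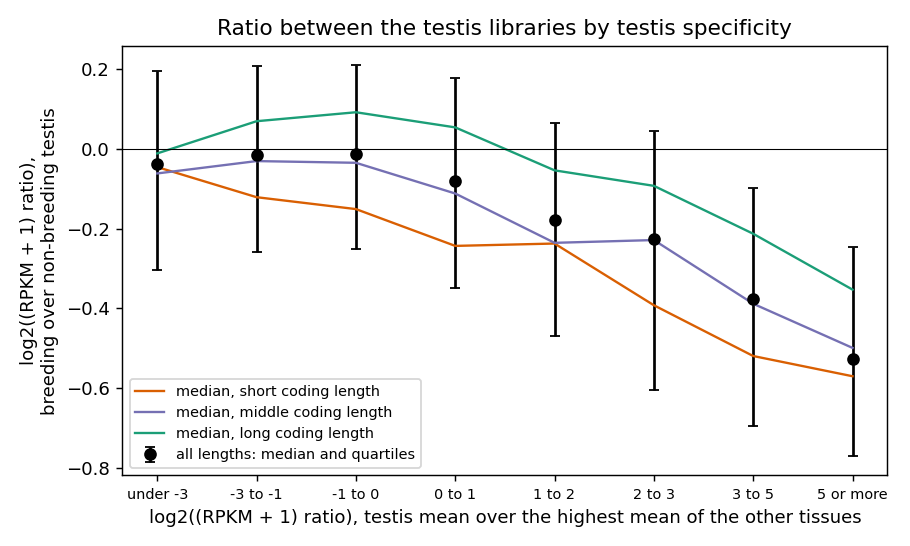
Median log2((RPKM + 1) ratio), breeding over non-breeding testis (y axis), of genes grouped by testis specificity (x axis, log2 of the testis mean over the highest other tissue mean, both with 1 RPKM added); black points and bars are medians and quartiles of all genes, coloured lines the medians of the 3 length groups. The medians stay near 0 up to a specificity of 0 and reach -0.53 in the group with the highest values. This measure also rises with testis level.

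As a share of all reads on genes, transcripts of the testis classes were smaller in the breeder. Here all genes that met a bound were summed, those below 1 RPKM included, which gave 1347 restricted and 1036 enriched genes. Enriched genes took 8.22% of the reads in the breeding testis (exact 95% binomial interval 8.21% to 8.23%) and 9.98% in the non-breeding testis (9.97% to 9.99%), a ratio of 0.824. Restricted genes took 0.467% (0.463% to 0.470%) and 0.585% (0.582% to 0.588%), a ratio of 0.797. Widely expressed genes took 83.7% against 81.4%, and the mixed class 7.62% against 7.99%. Without the 10 most abundant genes of each class the ratio was 0.815 for enriched and 0.784 for restricted genes.

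Genes enriched in other tissues had medians nearer to that of all genes. In the testis pair, 449 brain-enriched genes had a median log2 ratio of -0.07, 106 kidney-enriched genes -0.01, 172 liver-enriched genes 0.03 and 40 ovary-enriched genes -0.06, against -0.06 for all genes. Their median testis levels were 2.67, 2.52, 2.68 and 9.53 RPKM in that order, against 14.5 RPKM for genes enriched in testis, restricted ones included. The added 1 RPKM draws ratios of low genes toward 0, and testis-enriched genes under 3 RPKM had a median of -0.17. Genes shared by the testis and 1 other tissue, each at least 8 times the remaining 3 and enriched in neither alone, lay lower. The medians were -0.19 for 186 genes of testis and brain, -0.10 for 98 of testis and ovary, -0.29 for 33 of testis and kidney, and -0.40 for 33 of testis and liver. In that last set 29 of 33 genes (87.9%) were lower in the breeding testis, 8 of them (24.2%) by 2-fold or more, against 56.6% and 2.64% of all measured genes.

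The testis pair was set beside the 7 other pairs of a breeding and a non-breeding library of the same tissue and sex, none of which shares a library with it. Genes 2-fold or more apart in either direction made up 3.27% in testis, 3.59% in male kidney, 5.28% in male liver, 4.14% in male brain, 9.37% in female kidney, 12.1% in female liver, 2.42% in female brain and 8.26% in ovary. At the deposited scaling, genes lower in the breeder outnumbered those higher in testis, while in the other 7 pairs the higher side was larger, for example 287 against 206 genes in male kidney. For 1238 genes enriched in testis, restricted ones included, the median lay 0.33 below that of the 10139 genes at 1 RPKM or more in all libraries. The same difference for genes enriched in the tissue of the pair was -0.23 in male brain (866 genes), -0.01 in male kidney (284), 0.11 in male liver (406), 0.05 in female kidney (286), 0.08 in female liver (428), and close to 0 in female brain (867) and ovary (106). With like coding lengths as the reference the median of the tissue's own genes was -0.27 in testis and -0.24 in male brain, and between -0.02 and 0.08 in the other 6 pairs. The male brain pair is the one whose labels differ in brain region. Whether these differences between pairs exceed the spread between animals was not tested.

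The length trend differed between the pairs. The median of short minus that of long widely expressed genes was -0.24 in testis and -0.25 in female brain, -0.0047 in male kidney, and positive in male brain (0.30), male liver (0.20), female liver (0.10), ovary (0.10) and female kidney (0.07).

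**Figure D5:**
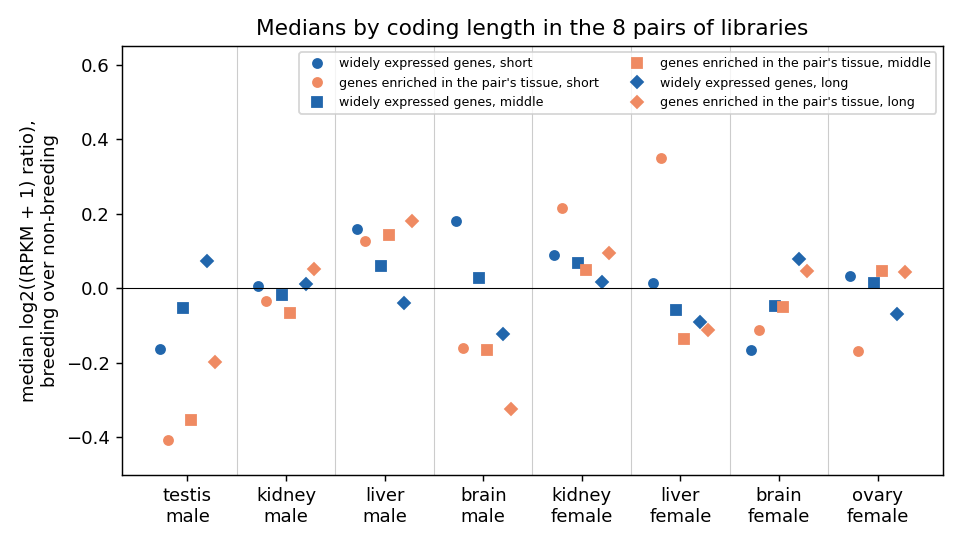
Median log2((RPKM + 1) ratio), breeding over non-breeding (y axis), in the 8 pairs of libraries (x axis), for genes at 1 RPKM or more in all libraries (blue) and genes enriched in the tissue of the pair (orange), by coding-length group (circle short, square middle, diamond long). Testis and male brain are the pairs in which the orange points lie below the blue ones in each length group by at least 0.19.

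The 123 widely expressed genes that were 2-fold or more lower in the breeding testis were chosen by their testis ratio, and their ratios in the other tissues rest on other libraries. In the male brain pair 98 of the 123 were higher in the breeder (median log2 ratio 0.49, 31 of them by 2-fold or more). Of all widely expressed genes 49.1% were higher there and 2.11% were so by 2-fold or more. They also leaned upward in male liver (90 of 123, median 0.37, against 54.2%), female liver (92, 0.38, against 45.4%), female kidney (79, 0.27, against 53.9%), ovary (75, 0.21, against 48.1%) and male kidney (73, 0.10, against 50.1%). In female brain the direction was that of the testis, with 91 of 123 lower and a median of -0.24, against 53.4% of all widely expressed genes lower. Of the 123 genes, 93 were short. Among these, 80 were higher in the breeding library of the male brain pair, against 63.9% of all short widely expressed genes. In female brain 72 of the 93 short genes were lower, against 66.8% of all short widely expressed genes, so the excess there was smaller. The shares of the 93 that were higher, against all short widely expressed genes, were 77.4% against 65.1% in male liver and 79.6% against 50.8% in female liver. They were 65.6% against 54.9% in female kidney, 62.4% against 53.4% in ovary and 61.3% against 50.9% in male kidney. Of the 6 long genes, 2 were higher in male liver, male brain, female liver and female kidney, 3 in ovary, and 5 in male kidney and female brain. The 33 widely expressed genes that were higher in the breeding testis were higher in 22 of 33 cases in male kidney (median 0.27, against 50.1% of all widely expressed genes). In male liver 16 were higher (-0.04, against 54.2%) and in male brain 13 (-0.29, against 49.1%). In the female pairs 10 were higher in kidney (median -0.35, against 53.9%) and 14 in liver (-0.07, against 45.4%). In female brain 11 were higher (-0.17, against 46.6%) and in ovary 13 (-0.33, against 48.1%).

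Genes read mainly in males among the shared tissues were also followed. The 8 genes with 10 or more reads in each of the 6 male kidney, liver and brain libraries and at most 1% as many in the 6 female ones lay between 1.97 and 46.8 RPKM in the testes. Of all 15452 measured genes, 6711 were higher and 8741 lower in the breeding testis, with a median log2 ratio of -0.06. Of these 8 genes, 6 were higher and 2 lower, with a median of 0.18, a difference that was not tested. The most abundant stood at 38.5 RPKM (2079 reads) in the breeder and 46.8 (3533 reads) in the non-breeder, and the next at 34.1 (1020 reads) against 24.7 (1033 reads). The largest difference was found in a gene of 546 bases at 1.97 RPKM (30 reads) against 5.69 (121 reads), 2.89 times as high in the non-breeder (exact 95% interval 1.92 to 4.46).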

How the data were processed

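The authors deposited 1 table of RPKM values with a column per library; TopHat 1.3.1 is named in the submitters' processing notes, and the sources used here do not give the counting tool, annotation or build. Whole reads, coding lengths (in units of 3 bases) and library divisors were recovered from the value steps for all 21082 genes, with a largest relative deviation of 3.0e-14. On simulated RPKM of 20878 genes the step returned 16 of 16 divisors and 99.9% of the read numbers, libraries without a read included. On a subset of 4000 genes with evenly spread lengths it returned only 5 divisors and 37.6%, so it was used on the whole table only. The simulation scored neither lengths nor genes read in few libraries separately. The step keeps the shortest length that gives whole reads. For genes read in few libraries, lengths and reads can therefore be too small by a common factor. Genes at 1 RPKM or more in either testis library were described by log2((RPKM + 1) ratio) at the deposited scaling, without a test. A gene went to the first class it met, in the order restricted, enriched, widely expressed. Named genes are the 2 highest and 2 lowest ratios in each of these classes and over all genes. Ratio and share intervals are exact (Clopper-Pearson, 95%). Python 3.11.15, numpy 2.4.6, pandas 2.3.3, scipy 1.17.1 and matplotlib 3.10.9 were used. Alternatives concerned scaling, pseudocount, filters, depth and class bounds. The classes and rules were chosen with earlier results of these data known. Marker lists of testis cell types were not used, since identifiers had no names.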

Additional observations from a re-analysis of the deposited data

Results flagged for a closer look

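In 3 results the testis pair pointed one way and other pairs the opposite way, and with 1 pair of libraries per tissue and sex none of these differences was tested. The median log2 ratio of genes enriched in the tissue minus that of widely expressed genes was -0.33 in testis, against 0.11 in male liver, 0.052 in female kidney and 0.080 in female liver. Male brain lay on the side of testis at -0.23, and male kidney (-0.01), female brain and ovary were within 0.02 of 0. The median of short minus that of long widely expressed genes was -0.24 in testis, against 0.20 in male liver, 0.30 in male brain, 0.074 in female kidney, 0.10 in female liver and 0.10 in ovary. Female brain, at -0.25, went the way of testis, and male kidney was at -0.0047. The 123 widely expressed genes chosen for being 2-fold or more lower in the breeding testis had a median of -1.16 there, a value the choice fixes. The same genes had medians of 0.10 in male kidney, 0.37 in male liver, 0.49 in male brain, 0.27 in female kidney, 0.38 in female liver and 0.21 in ovary, and -0.24 in female brain, where 91 of the 123 were lower as in testis. Of all widely expressed genes 53.4% were lower in female brain, and of the short ones 66.8%.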

How the results depend on the processing

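The restricted and enriched medians were below 0 in each of the 12 and 15 alternatives run for them, and both stayed below the widely expressed median in each of the 16. The restricted median was -0.47 with a mean of 5 RPKM or more and -0.24 after centring by length (an alternative chosen after seeing the data). Without a filter it was -0.054, where most genes lay below 1 RPKM and the added 1 RPKM holds their ratios near 0. The enriched median was -0.24 with quantile normalization, -0.28 after centring by length, -0.30 with a 4-fold and -0.39 with a 16-fold bound. The widely expressed median was 0.015 when scaled to reads on genes, 0.0014 after centring on these genes, 0.062 with quantile normalization and 0.00077 after centring by length. In the same order the median of all genes was -0.020, -0.030, 0.026 and -0.023, and -0.043 without a filter. Genes 2-fold or more higher in the breeding testis numbered 157 when scaled to reads on genes, 275 with a pseudocount of 0.1 (724 lower), 64 with 1 RPKM in both libraries, 47 with a mean of 5 RPKM and 180 after centring by length. Breeding over non-breeding shares of RPKM in place of reads were 0.814 for restricted, 0.860 for enriched and 1.026 for widely expressed genes. Without the 10 most abundant genes, also chosen after seeing the data, the shares of reads gave 0.784, 0.815 and 1.029. With a pseudocount of 0.1, genes 2-fold apart numbered 888 in male kidney, 1228 in male liver, 1147 in male brain, 1976 in female kidney, 835 in female brain and 1777 in ovary, and male liver had 425 when scaled to reads on genes. Thinning both libraries to 18555319 reads gave 105 higher and 422 lower genes. No paired analysis was possible because each group has 1 library.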

Other observations

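Detection itself differed little between the testes: 14550 genes reached 1 RPKM in both, 375 in the breeder alone and 527 in the non-breeder alone. No more than 3 genes reached 1 RPKM in the breeding testis without a read in the other, and 7 did so in the reverse direction, where a count of 0 allows up to 3 reads. The most abundant widely expressed gene had 6597 RPKM in the breeder and 8670 in the non-breeder, and 8 of the 10 most abundant of this class were lower in the breeder.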
